A study of Homo sapiens with 12 samples.

Results

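The well-expressed long non-coding RNA (lncRNA) genes of 624Mel melanoma cells were taken from a table of TPM (transcript abundance, scaled for length and library) per gene and library. A gene was included when GENCODE v44 annotates it as lncRNA, it has a symbol, and its mean reached 10 TPM in at least 1 of the 4 conditions. This gave 5 genes, namely SNHG32, RNF216P1, KRT10-AS1, ST20 and LINC02693, out of 50 lncRNA genes with a symbol and 40173 gene IDs in the table. GENCODE v44 holds 18866 lncRNA genes, and 76 of their IDs were listed in the table, so the 5 genes describe what the table lists rather than the lncRNAs of the cell. By comparison, 19898 of 20046 protein-coding genes were listed, and 8822 of them reached 10 TPM in a condition. The genes were thus chosen by their TPM levels, which are given as a description. All 5 had a mean of at least 10 TPM in every one of the 4 conditions, so the minimum did not require any of them to differ between conditions.

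The study asked how the loss of MITF, the transcription factor that maintains the melanocyte lineage, alters the response of melanoma cells to interferon gamma (IFNγ). 624Mel, a human melanoma cell line, was transfected with a control siRNA (siCTRL) or an siRNA against MITF (siMITF) at the time of seeding. After 24 h, IFNγ was added to some cultures at 5 ng/mL, and the cells were harvested after 24 h of treatment. The 4 conditions were siCTRL, siCTRL + IFNγ, siMITF and siMITF + IFNγ, with 3 libraries each, numbered 1 to 3. The result is specific to 1 cell line and to a transient, partial knockdown, and all cells, controls included, underwent transfection. The study states at least 3 independent biological replicates for its experiments, while the library labels give only a number. Poly(A) RNA was converted to libraries with the TruSeq RNA v2 kit, which does not mark strand.

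MITF was listed at 187 to 229 TPM in siCTRL and at 36.0 to 49.7 TPM in siMITF libraries. IRF1, a primary target of IFNγ signalling, was listed at 2.31 to 2.83 TPM in siCTRL and at 76.8 to 102 TPM in siCTRL + IFNγ libraries. The 7 of 7 melanocyte markers reached 2 TPM in every condition, and their sum was 7931 to 9381 TPM in siCTRL against 2308 to 2607 TPM in siMITF. Markers of other cell types were low, with sums of at most 0.800 TPM for 3 endothelial, 5.48 TPM for 4 immune and 12.5 TPM for 5 fibroblast genes in any library. Of 4 keratinocyte markers only KRT10 reached 2 TPM, and KRT10 is the gene that KRT10-AS1 overlaps. Mitochondrial transcripts took 7.42% to 16.9% of the listed TPM, with library 2 lowest in each condition. The depth of the libraries is unknown, and TPM express shares of a library, so a change in the amount of RNA per cell cannot be told apart from a change in the share.

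LncRNAs are transcripts without a recognised long coding frame. Some act in the nucleus on chromatin or splicing, some are precursors of small RNAs, and for many no function is known. The 5 genes fall into different kinds. SNHG32 (small nucleolar RNA host gene 32, formerly C6orf48) carries small nucleolar RNAs (snoRNAs) in its introns; these guide chemical modification of ribosomal RNA, and the spliced host RNA is the by-product that is measured here. RNF216P1 is a transcribed pseudogene related to RNF216, which encodes a ubiquitin ligase. KRT10-AS1 (formerly TMEM99) is antisense to KRT10, which encodes a keratin of differentiating epidermis. ST20 (suppressor of tumorigenicity 20, also HCCS-1) lies at the start of a readthrough gene, ST20-MTHFS, that joins it to the folate enzyme gene MTHFS. LINC02693 (formerly C17orf51) is a long intergenic RNA gene.

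The positions are given on GRCh38 from GENCODE v44. SNHG32 (ENSG00000204387) lies at chr6:31834608-31839766 on the plus strand, within the class III region of the major histocompatibility complex, with 10 annotated transcripts of 2 to 5 exons. RNF216P1 (ENSG00000196204) lies at chr7:4973988-5040675 on the plus strand with 12 transcripts. KRT10-AS1 (ENSG00000167920) lies at chr17:40819101-40836270 on the plus strand with 9 transcripts. ST20 (ENSG00000180953) lies at chr15:79898840-79923702 on the minus strand with 3 transcripts. LINC02693 (ENSG00000212719) lies at chr17:21428263-21574517 on the minus strand, with 36 transcripts over 146255 bases, the longest span of the 5 genes.

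The snoRNAs of SNHG32 are shown because they are the part of this gene with a known product. SNORD48 (chr6:31835263-31835326) is intronic in 7 of the 10 SNHG32 transcripts and SNORD52 (chr6:31837076-31837142) in 9 of the 10. Both are box C/D snoRNAs, written here 5′ to 3′ from GRCh38 with the C box near the start and the D box near the end in capitals.
SNORD48: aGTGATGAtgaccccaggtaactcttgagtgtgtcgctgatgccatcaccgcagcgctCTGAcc
SNORD52: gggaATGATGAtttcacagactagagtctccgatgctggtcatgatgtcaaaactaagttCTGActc
The snoRNAs themselves have no poly(A) tail and were not analysed here, so the values below are for the host RNA.

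RNF216P1 is shown beside RNF216 because the similarity bears on how reads were assigned. Its best aligned transcript matched 385 bases of the 2769-base RNF216 coding sequence with 97.9% identity and 8 differences. A 60-base window with 4 of the differences, in capitals, is given for bases 678 to 737 of the RNF216P1 transcript and positions 1423 to 1482 of the RNF216 coding sequence, both counted from 1 at the 5′ end.
RNF216P1: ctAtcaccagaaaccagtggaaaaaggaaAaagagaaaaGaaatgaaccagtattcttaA
RNF216: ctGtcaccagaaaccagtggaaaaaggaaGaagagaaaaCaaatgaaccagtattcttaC

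The authors quantified reads with kallisto, which assigns them by shared stretches of sequence. The share of 31-base stretches that a gene has in common with other listed genes was therefore counted over its annotated transcripts. Sequences came from GENCODE v44, so the 4653 listed IDs without an entry there were not compared, and each share could be higher. For SNHG32 this share was 0.153%, although 19.8% of its stretches are also held by an unnamed overlapping lncRNA that is not among the genes used here. For RNF216P1 it was 28.3%, of which 13.9% lay in a pseudogene within its own span, 10.1% in XKR8 (listed at a mean of 0.0420 TPM) and 3.76% in RNF216. RBAK-RBAKDN, a readthrough gene that overlaps RNF216P1 on the same strand and was listed at a mean of 0.407 TPM, held 3.41%, and a stretch can be held by more than 1 gene. ST20 shared 24.9%, with 17.7% in ST20-MTHFS and 6.64% in BCL2A1, which encodes an anti-apoptotic protein and lies 37190 bases away. KRT10-AS1 and LINC02693 shared 1.79% and 2.29%. For LINC02693, 0.951% of its stretches lay in ENSG00000266050, a processed pseudogene within LINC02693 on the same strand, which shares 200 exonic bases with it and was listed at a mean of 81.3 TPM. By these shares, RNF216P1 and ST20 had the most sequence in common with other listed genes, so reads could be split and their values are uncertain. The overlaps of SNHG32 and LINC02693 given above leave their values uncertain as well. How reads were split was not tested.

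By mean over the 12 libraries the order was SNHG32 (34.7 TPM), RNF216P1 (31.8 TPM), KRT10-AS1 (22.4 TPM), ST20 (13.2 TPM) and LINC02693 (13.2 TPM). TPM correct for transcript length, so these levels can be set side by side, within the limits of read assignment given above. By this mean, SNHG32 was above 53.0% and LINC02693 above 15.5% of the protein-coding genes that reached 10 TPM in a condition. The order of the top pair depended on the condition. In siCTRL, SNHG32 at 30.8 to 38.7 TPM lay above RNF216P1 at 28.2 to 29.6 TPM in every library, whereas with IFNγ in siCTRL cells the ranges of 21.8 to 29.8 and 26.6 to 32.2 TPM overlapped. The ranges of ST20 and LINC02693 overlapped in all conditions except siMITF, where LINC02693 was higher in every library. LINC02693 varied most between replicates, with a coefficient of variation of 15.4% to 35.5% within a condition, against 2.74% to 9.66% for RNF216P1.

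Around the minimum of 10 TPM, the nearest members by their highest condition mean were ST20 (14.4 TPM), LINC02693 (16.0 TPM) and KRT10-AS1 (25.3 TPM). Just below it were HHLA3 (9.23 TPM), C8orf44 (4.49 TPM) and MIR9-1HG (4.36 TPM), and the other 42 lncRNA genes with a symbol stayed under 2 TPM in every condition. Of lists of lncRNAs that could be looked for by name, 0 of 12 abundant nuclear lncRNAs such as MALAT1 and NEAT1, 0 of 23 from melanoma or the MITF programme, 0 of 30 near interferon-responsive loci, 0 of 11 miRNA hosts and 0 of 15 stress lncRNAs had their symbol in the table. They were not analysed here. Of 44 snoRNA host genes on a list, 2 were present, SNHG32 and CCT6P1, and SNHG32 alone is annotated as lncRNA.

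**Figure D1:**
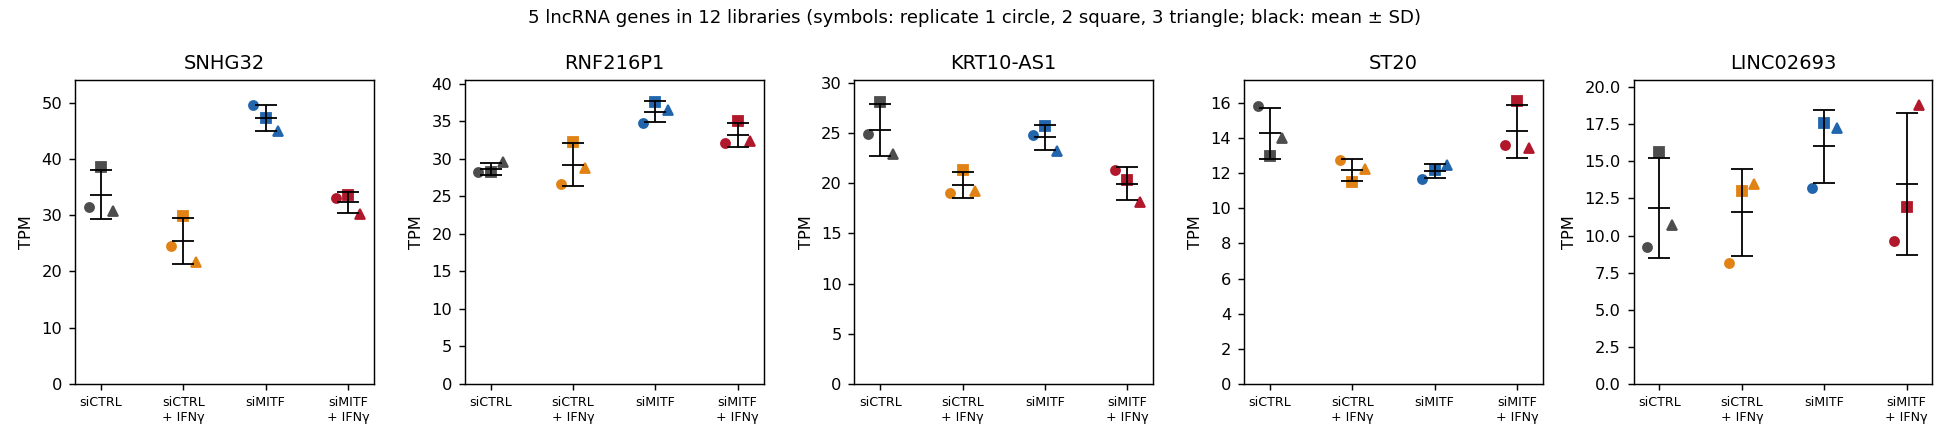
Level in TPM (vertical axis, from 0) of each lncRNA gene in the 12 libraries, by condition, with the symbol marking the replicate number and black bars the mean ± SD of 3 libraries. SNHG32 runs from 21.8 TPM in a siCTRL + IFNγ library to 49.7 TPM in a siMITF library, and LINC02693 shows the widest scatter within conditions.

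siMITF was first compared with siCTRL without IFNγ, to see which lncRNAs moved with the loss of MITF. SNHG32 and RNF216P1 rose, and no member was called lower. In limma on log2(TPM + 1), 2 of 5 members passed an adjusted p of 0.05, both higher, while 34.8% of the 12773 tested gene IDs were called, 21.0% of them higher and 13.8% lower as shares of all tested. The median difference was 0.33 over the 5 members and 0.06 over all tested genes on the log2 scale, and 0 members changed at least 2-fold, a size reached by 6.10% of the tested genes.

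SNHG32 was listed at 31.5, 38.7 and 30.8 TPM in siCTRL libraries 1, 2 and 3 and at 49.7, 47.3 and 45.0 TPM in siMITF. Every siMITF library was above every siCTRL library. The means were 33.7 ± 4.35 and 47.3 ± 2.34 TPM (SD, n = 3), a log2 difference of 0.49 (SE 0.12, adjusted p = 0.00618) with a 95% interval of 0.23 to 0.74. The call held without each of the 12 libraries in turn.

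RNF216P1 was listed at 28.2, 28.2 and 29.6 TPM in siCTRL and at 34.8, 37.5 and 36.5 TPM in siMITF. The siMITF values all lay above the siCTRL values, which had a coefficient of variation of 2.74%. The log2 difference was 0.33 (SE 0.08, adjusted p = 0.00737), a rise by 25.6% on the scale of TPM + 1, and it too held without each library in turn.

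LINC02693 was listed at 9.21, 15.6 and 10.7 TPM in siCTRL and at 13.2, 17.6 and 17.3 TPM in siMITF. The groups overlapped, because siCTRL library 2 was above siMITF library 1. The log2 difference of 0.43 (SE 0.25, adjusted p = 0.215) had an interval of -0.12 to 0.97 and was not called. Library 1 was lowest in all 4 conditions for this gene, by 0.34 on the log2 scale on average, and each numbered siMITF library was above the siCTRL library of the same number. When replicate number entered as a block, its adjusted p was 0.0374 and the difference was called, while 28.8% of all tested genes were called higher under the block.

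**Figure D2:**
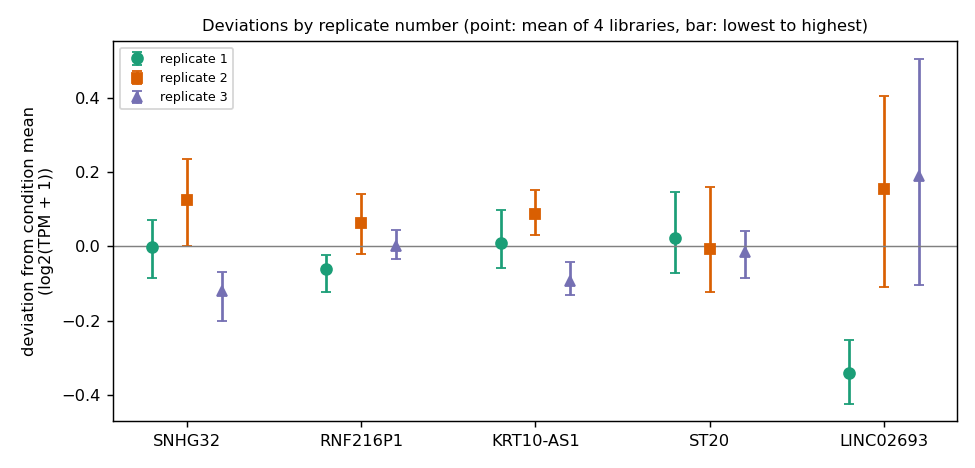
Deviation of each lncRNA gene from its condition mean in log2(TPM + 1) (vertical axis), by replicate number, with points for the mean of 4 libraries and bars from the lowest to the highest. Only for LINC02693 does 1 number lie far off in every condition, with library 1 between -0.42 and -0.25.

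ST20 and KRT10-AS1 were not called. ST20 was listed at 15.87, 13.00 and 14.02 TPM in siCTRL and at 11.67, 12.21 and 12.50 TPM in siMITF, so that every siMITF library was lower, with a log2 difference of -0.22 (SE 0.10, adjusted p = 0.109). KRT10-AS1 was listed at 24.9, 28.1 and 22.9 TPM in siCTRL and at 24.8, 25.7 and 23.3 TPM in siMITF. Its difference of -0.04 had an interval of -0.24 to 0.17.

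The same comparison was then made in cells treated with IFNγ. SNHG32 was again higher in siMITF, and it was the 1 member of 5 called. Of the tested genes 33.1% were called, 18.4% of them higher and 14.7% lower as shares of all tested. As in every comparison here 0 members changed at least 2-fold, against 5.68% of genes. The libraries held 24.6, 29.8 and 21.8 TPM in siCTRL + IFNγ and 33.1, 33.6 and 30.2 TPM in siMITF + IFNγ. The groups did not overlap, and the log2 difference was 0.35 (SE 0.12, adjusted p = 0.0382). With a library left out the difference stayed between 0.24 and 0.46, with adjusted p up to 0.166. The call was lost without any 1 of 4 libraries of the comparison (siCTRL + IFNγ 1 or 3, siMITF + IFNγ 1 or 2). It was also lost without siMITF 1, 2 or 3, which are outside the comparison, so that the difference itself was unchanged and the estimate of spread shared by all conditions, with the p, was not. With the replicate block the adjusted p was 0.00394.

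RNF216P1 was listed at 26.6, 32.2 and 28.8 TPM in siCTRL + IFNγ and at 32.2, 35.0 and 32.3 TPM in siMITF + IFNγ. The groups met at 32.2 TPM, where siCTRL + IFNγ library 2 lay marginally above siMITF + IFNγ library 1. The log2 difference was 0.18 (SE 0.08, adjusted p = 0.110), with an interval of 0.0039 to 0.36. It was called with the replicate block (adjusted p = 0.0407, against 25.3% of genes called higher) and without siCTRL + IFNγ library 2 (adjusted p = 0.0291).

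LINC02693 was listed at 8.17, 13.0 and 13.5 TPM in siCTRL + IFNγ and at 9.63, 11.9 and 18.8 TPM in siMITF + IFNγ, with a log2 difference of 0.18 and an interval of -0.36 to 0.73. ST20 was listed at 12.8, 11.5 and 12.2 TPM in siCTRL + IFNγ and at 13.6, 16.1 and 13.5 TPM in siMITF + IFNγ, so that here every siMITF library was higher, with a log2 difference of 0.22 (SE 0.10, adjusted p = 0.104). The difference for KRT10-AS1 was 0.01 with an interval of -0.20 to 0.21, and its direction changed with the scaling, being negative after quantile normalization or median centring.

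**Figure D3:**
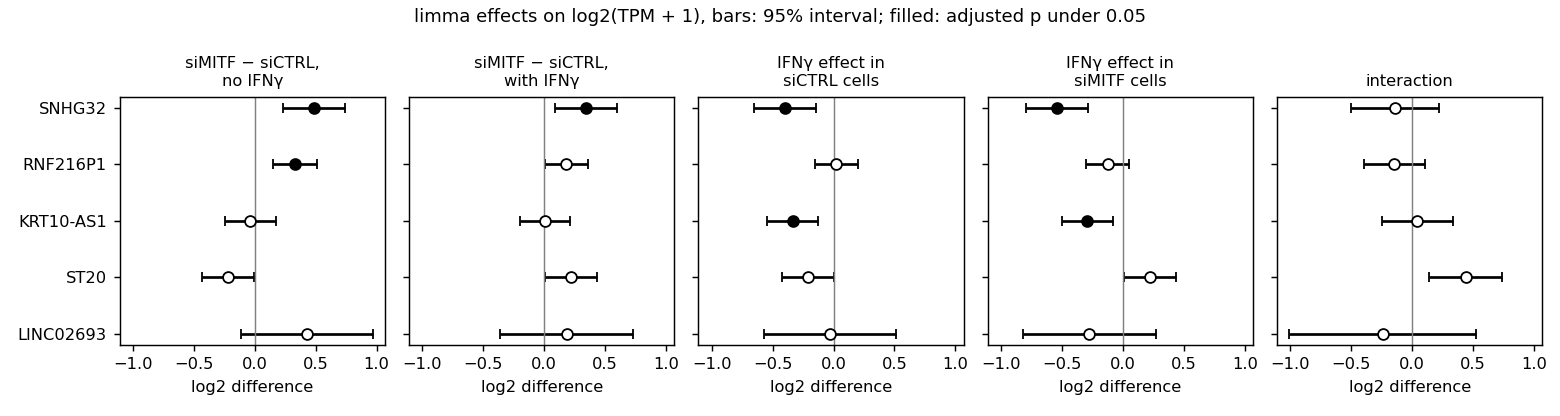
log2 differences of log2(TPM + 1) from limma (horizontal axis) with 95% intervals for each lncRNA gene, in the 4 comparisons and the interaction, with filled points for an adjusted p under 0.05. SNHG32 is filled in all 4 comparisons, from 0.49 with siMITF to -0.54 with IFNγ in siMITF cells, and no point is filled for the interaction.

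Addition of IFNγ was compared within siCTRL cells. SNHG32 and KRT10-AS1 fell, and no member was called higher. These were 2 of 5 members called, while 12.9% of the tested genes were called, 6.80% higher and 6.14% lower. The median difference was -0.21 over the members and -0.07 over all tested genes, and 0 members changed at least 2-fold, against 2.52% of genes.

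SNHG32 went from 31.5, 38.7 and 30.8 TPM in siCTRL to 24.6, 29.8 and 21.8 TPM in siCTRL + IFNγ. Every IFNγ-treated library was lower, and the log2 difference was -0.40 (SE 0.12, adjusted p = 0.0424). With a library left out the difference stayed between -0.52 and -0.30, with adjusted p up to 0.180. The call was lost without any 1 of 10 libraries, namely siCTRL 1, 2 or 3 and siCTRL + IFNγ 1 or 3, and, outside the comparison, siMITF 1, 2 or 3 and siMITF + IFNγ 2 or 3. The block gave an adjusted p of 0.00359.

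KRT10-AS1 went from 24.9, 28.1 and 22.9 TPM to 18.99, 21.28 and 19.22 TPM. The groups were separate, and the log2 difference was -0.33 (SE 0.10, adjusted p = 0.0382), so that the level fell by 20.7% on the scale of TPM + 1. The difference stayed between -0.40 and -0.26 with a library left out. The call was lost without any 1 of 8 libraries (siCTRL 1 or 2 or siCTRL + IFNγ 1 or 3 and, outside the comparison, siMITF 1, 2 or 3 or siMITF + IFNγ 2), with adjusted p up to 0.158, and the block gave 0.00457.

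Of the remaining members, ST20 was lower in every siCTRL + IFNγ library, with a log2 difference of -0.21 (SE 0.10, adjusted p = 0.191). RNF216P1 differed by 0.02 with an interval of -0.15 to 0.20. LINC02693 differed by -0.03, with a wide interval of -0.57 to 0.51.

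Within siMITF cells, SNHG32 and KRT10-AS1 again fell with IFNγ. They were 2 of 5 members called, while 20.2% of genes were called, 7.99% higher and 12.2% lower, and the median difference was -0.27 over the members and -0.10 over all tested genes. A change of at least 2-fold was seen in 0 members and 2.95% of genes. SNHG32 went from 49.7, 47.3 and 45.0 TPM to 33.1, 33.6 and 30.2 TPM, with no overlap. Its log2 difference of -0.54 (SE 0.12, adjusted p = 0.00616) was the largest called change of any member in the 4 comparisons, and it held without each library in turn.

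KRT10-AS1 went from 24.8, 25.7 and 23.3 TPM in siMITF to 21.3, 20.3 and 18.1 TPM in siMITF + IFNγ. The groups did not overlap, but the log2 difference of -0.29 (SE 0.10, adjusted p = 0.0497) passed the threshold narrowly. The difference stayed between -0.34 and -0.23 with a library left out. The call was lost without any 1 of 8 libraries (siMITF 1, 2 or 3 or siMITF + IFNγ 2 or 3 and, outside the comparison, siCTRL 1 or 3 or siCTRL + IFNγ 3), with adjusted p up to 0.169, while the block gave 0.00721.

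ST20 lay on the other side of 0, being higher in every siMITF + IFNγ than in every siMITF library, with a log2 difference of 0.23 (SE 0.10, adjusted p = 0.126). The difference for RNF216P1 was -0.13 (adjusted p = 0.305), and that for LINC02693 was -0.27 (SE 0.25, adjusted p = 0.473). The pairs of comparisons share libraries, so their values are not independent of each other.

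The interaction, which is how much larger the IFNγ effect was with siMITF than with siCTRL, addresses the question of the study most directly. In limma 0 of 5 members passed the adjusted threshold, and 0.947% of the tested genes were called (0.478% also at least 2-fold). ST20 had the smallest p of the members, at rank 353 among the 12773 tested genes. Its interaction was 0.44 (SE 0.14, adjusted p = 0.288) with an interval of 0.14 to 0.74. For SNHG32 the interaction was -0.14 with an interval of -0.50 to 0.22, for RNF216P1 -0.15 with -0.40 to 0.10, and for KRT10-AS1 0.04 with -0.25 to 0.34. LINC02693 had the widest interval, -1.01 to 0.53, which leaves differences of 2-fold within it.

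Across the 4 conditions SNHG32 was highest in siMITF, at 47.3 TPM, lowest in siCTRL + IFNγ, at 25.4 TPM, and in between in siCTRL and siMITF + IFNγ, at 33.7 and 32.3 TPM. The ranges of the last pair, 30.8 to 38.7 and 30.2 to 33.6 TPM, overlapped. SnoRNA host genes, with SNHG32 among them, were taken from the annotation as genes with a snoRNA on the same strand within their span. The list was made after the values of SNHG32 were seen. Of 212 such tested genes, 207 of them protein-coding, 26 (12.3%) were called higher and 32 (15.1%) lower with siMITF without IFNγ, against 21.0% and 13.8% of all tested genes, with a median log2 difference of 0.01 against 0.06. With siMITF in the presence of IFNγ, 32 (15.1%) were higher and 30 (14.2%) lower, against 18.4% and 14.7% of all. With IFNγ in siCTRL cells, 6 (2.83%) were higher and 29 (13.7%) lower, against 6.80% and 6.14%, with a median of -0.14 against -0.07. With IFNγ in siMITF cells, 11 (5.19%) were higher and 32 (15.1%) lower, against 7.99% and 12.2%, with a median of -0.13 against -0.10. SNHG32 was exceeded by 16 of the 212 in its rise with siMITF without IFNγ and by 18 in its fall with IFNγ in siCTRL cells. In siMITF cells 7 of the 212 fell by more than SNHG32 with IFNγ.

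The promoter window of SNHG32 is shown because host genes of this kind often begin transcription within a run of pyrimidines. The 300 bases from RefSeq (GRCh38.p14, chr6:31834666-31834965, plus strand, 250 before to 50 after the RefSeq start) hold a run of 8 pyrimidines, in capitals, which begins 2 bases before that start. It was the longest run near the start, and by the same search the windows of KRT10-AS1 and ST20 held runs of 5. The share of all promoter windows with such a run was not counted. The RefSeq start lies downstream of the GENCODE start at 31834608, so the window falls within the gene span given above, and it was not tested which start these cells use.
SNHG32: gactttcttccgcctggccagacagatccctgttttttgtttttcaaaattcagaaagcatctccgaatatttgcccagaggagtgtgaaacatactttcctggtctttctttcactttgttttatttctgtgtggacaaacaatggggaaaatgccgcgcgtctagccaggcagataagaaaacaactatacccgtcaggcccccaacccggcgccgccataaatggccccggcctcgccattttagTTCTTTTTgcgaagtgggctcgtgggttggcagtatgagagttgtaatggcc
Promoter entries were found for 3 of the 5 genes, SNHG32, KRT10-AS1 and ST20. They were searched on both strands for CACGTG and CATGTG, the letters of E-boxes that MITF can bind, for TTCNNNGAA, the letters of a gamma-activated site, and for the interferon-stimulated response element. These letters were not found in the windows of the 3 genes, while 7.26%, 11.1%, 7.66% and 3.57% of all 35116 promoter windows of the same length held them. GC content was 48.3% for SNHG32, 76.7% and 71.7% for the 2 entries of KRT10-AS1 and 70.0% for ST20, against a median of 58.7% over all windows. For KRT10-AS1, 267 of the 300 bases of its first promoter entry (chr17:40818895-40819194) lie within the coding sequence of KRT10.

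KRT10-AS1 overlaps KRT10 on the other strand by 3514 bases of gene span, of which 61 bases are exonic in both, or 1.99% of its exonic length. KRT10 was listed at a mean of 54.2 TPM in siCTRL and 51.4 in siMITF, and at 43.3 and 43.6 TPM in the same cells with IFNγ, and its means, like those of KRT10-AS1, were lower with IFNγ. For every 100 TPM of KRT10, KRT10-AS1 took between 43.4 and 50.3 TPM over the 12 libraries, and the condition means were 46.8 in siCTRL, 47.9 in siMITF, and 45.8 with IFNγ in both. KRT10 itself differed by -0.31 (adjusted p = 0.0734) with IFNγ in siCTRL cells, where every treated library was lower. In siMITF cells it differed by -0.24 (adjusted p = 0.136), and the groups overlapped. Neither passed in the limma fit without the replicate block, and no blocked value is given for KRT10. The differences of KRT10-AS1 were -0.33 and -0.29, and whether the response differed between the genes was not tested. Since the kit does not mark strand, reads from the exonic bases that the genes share cannot be told apart, although 1.04% of the 31-base stretches of KRT10-AS1 were shared with KRT10.

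RNF216, the gene related to RNF216P1, was listed at means of 34.3, 34.6, 36.4 and 35.2 TPM in siCTRL, siCTRL + IFNγ, siMITF and siMITF + IFNγ, and differed by 0.08 (interval -0.16 to 0.33, adjusted p = 0.627) with siMITF. For every 100 TPM of RNF216, RNF216P1 took 79.4 to 86.6 in siCTRL and 95.4 to 108 in siMITF libraries, which did not overlap. With IFNγ these ranges were 82.1 to 89.3 and 85.6 to 107, which did. The ratios were not tested.

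**Figure D4:**
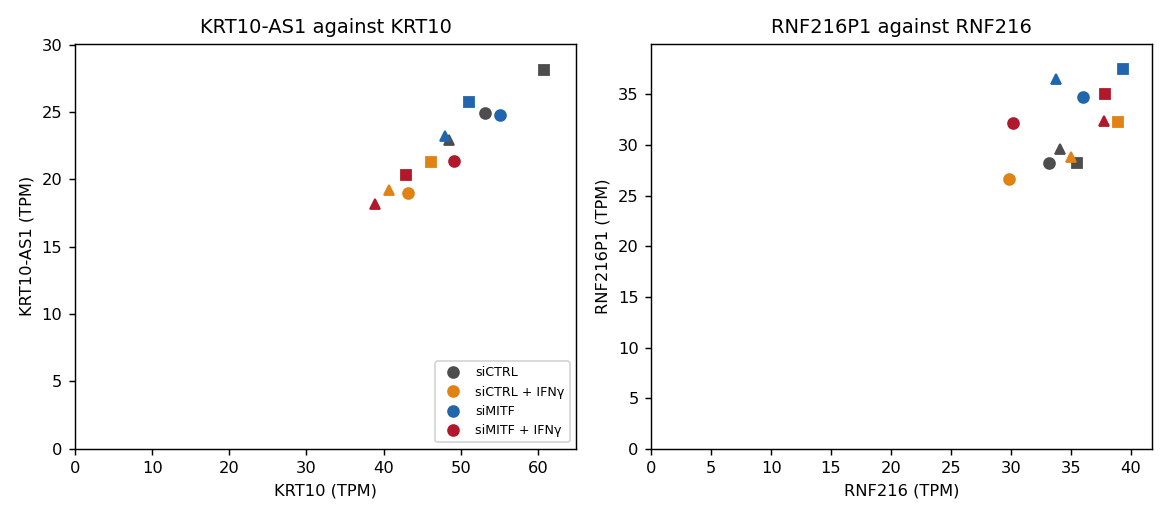
TPM of KRT10-AS1 against KRT10 (left) and of RNF216P1 against RNF216 (right), both axes from 0, with 1 point per library coloured by condition and shaped by replicate number. KRT10-AS1 lies between 43.4 and 50.3 per 100 TPM of KRT10 in all 12 libraries, while RNF216P1 spans 79.4 to 108 per 100 TPM of RNF216.

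ST20 was described with the genes that share its sequence. ST20-MTHFS, which shares 307 exonic bases (19.02%) with it on the same strand, was listed at means of 12.7, 11.9, 13.8 and 11.2 TPM in siCTRL, siCTRL + IFNγ, siMITF and siMITF + IFNγ. In siMITF + IFNγ, where ST20 was high, its libraries held 9.64, 11.0 and 12.9 TPM, all below the siMITF libraries at 14.5, 13.3 and 13.7 TPM, with a log2 difference of -0.29 (adjusted p = 0.0653). The sum of ST20 and ST20-MTHFS was 27.0, 24.1, 26.0 and 25.6 TPM in the same order of conditions. ST20 made up 53.0%, 50.5%, 46.7% and 56.4% of that sum on average, and its share in siMITF was 44.6% to 47.9% against 51.1% to 59.5% in siMITF + IFNγ. Whether reads were split differently between these genes in different libraries was not tested.

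MTHFS, whose nearest end is 1461 bases from ST20, was listed at 50.7, 46.2, 52.9 and 49.5 TPM, and none of its differences passed. BCL2A1, with 6.64% of the sequence stretches of ST20, was listed at 22.0, 22.0, 6.44 and 7.03 TPM, a log2 difference of -1.63 (adjusted p = 1.93e-07) with siMITF and of -1.52 (adjusted p = 3.94e-07) with siMITF in the presence of IFNγ. ST20 was lower with siMITF without IFNγ and higher with siMITF in its presence, while BCL2A1 was lower in both. ST20-AS1, which starts 931 bases from ST20 on the other strand and overlaps it by 251 exonic bases, was not analysed here, and reads from the overlap cannot be told apart without strand.

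**Figure D5:**
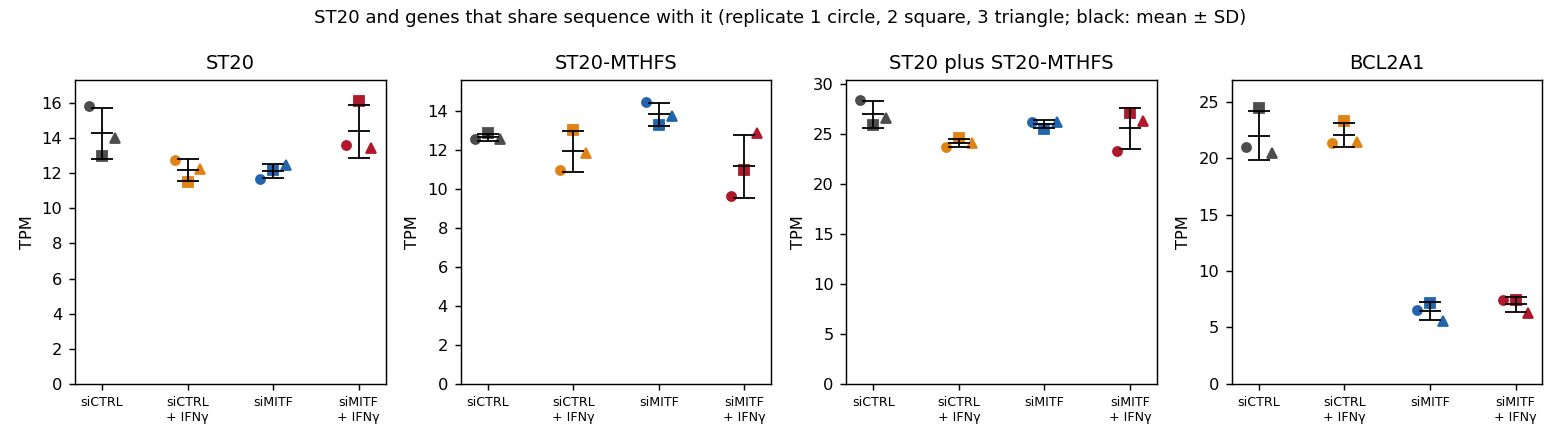
TPM (vertical axis, from 0) of ST20, of the readthrough gene ST20-MTHFS, of their sum and of BCL2A1 by condition, with symbols for the replicate number and black bars for the mean ± SD of 3 libraries. ST20 is higher in siCTRL and siMITF + IFNγ (means 14.3 and 14.4 TPM) than in siCTRL + IFNγ and siMITF (12.2 and 12.1 TPM). The sum ranges from 23.3 to 28.4 TPM over the 12 libraries. It is lower in siCTRL + IFNγ (23.7 to 24.6 TPM) than in siCTRL (25.9 to 28.4 TPM), without overlap.

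Summed over the 5 genes, the level was 114 ± 8.58 TPM in siCTRL and 136 ± 3.50 in siMITF, and with IFNγ 98.2 ± 8.67 and 113 ± 3.61 TPM (SD, n = 3). The siMITF libraries, at 134 to 140 TPM, lay above all other libraries, whose highest was siCTRL library 2 at 124 TPM. From siCTRL to siMITF the mean went from 33.7 to 47.3 TPM for SNHG32 and from 28.7 to 36.3 TPM for RNF216P1. It went from 11.8 to 16.0 TPM for LINC02693. The means of KRT10-AS1 (25.3 and 24.6 TPM) and ST20 (14.3 and 12.1 TPM) were lower in siMITF, so the sum does not describe each gene.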

How the data were processed

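The authors trimmed reads with Trimmomatic 0.39, quantified them with kallisto on the Ensembl GRCh38 transcriptome and deposited TPM per gene and library; they tested counts with DESeq2 1.26.0, which are not used here. The Ensembl release and the step from transcripts to genes are not given in the sources used here. Without counts no depth, counting interval or detection floor can be given, so TPM were not tested with a count model.

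Values were transformed to log2(TPM + 1) and limma 3.58.1 (R 4.3.3) was run on 12773 gene IDs that reached an average of 2 TPM or more in any condition, using all 12 libraries, 1 coefficient per condition and an intensity trend. Tests were two-sided with Benjamini-Hochberg adjustment over all tested IDs, called at 0.05, and read also with an absolute log2 difference of at least 1. log2 differences understate changes of low genes. Gene types and positions came from GENCODE v44 and promoters from RefSeq. Python 3.11.15, pandas 2.3.3 and Biopython 1.88 were used.

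All 5 members are named, with the 3 lncRNA genes nearest below 10 TPM and selected genes that overlap a member or share its sequence. The members and lists were chosen with earlier results of these data known. Whether replicate numbers pair the libraries was checked on deviations from condition means. Libraries sharing a number across conditions (18 pairs) correlated at 0.102 to 0.625 over genes (median 0.279). The 36 differently numbered pairs lay at -0.474 to 0.226 (median -0.196), so the ranges overlapped. By this correlation, the nearest library of another condition had the same number for 12 of 12 libraries. As every same-numbered pair was also above 0.1, the numbers were taken as pairing the libraries. The fit without a block was kept as the main one, so its SE, intervals and p do not use this pairing. Blocked values are given where they bear on a call.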

Additional observations from a re-analysis of the deposited data

Results flagged for a closer look

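The differences of ST20 had opposite signs under the same treatment in different cells. With IFNγ its level was lower in all siCTRL libraries and higher in all siMITF libraries. Likewise siMITF was lower than siCTRL in every library without IFNγ and higher in every library with it. ST20 was flagged for this pattern itself, and the share of all tested genes that show it was not counted. The difference between the effects was 0.439 on the log2 scale in both readings, since the interaction is the same number. In limma its adjusted p was 0.288 (0.142 with the replicate block, 0.131 to 0.619 over the alternatives), so the difference did not pass the adjusted threshold. The readthrough gene ST20-MTHFS, which shares sequence with ST20, had an interaction of -0.21 (adjusted p = 0.877), and its part in the result was not tested.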

How the results depend on the processing

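For siMITF without IFNγ the count of 2 called members was 2 or 3 under every alternative tried, and the counts of 0 for the interaction and for 2-fold changes stayed at 0. For siMITF with IFNγ the count of 1 became 0 with no filter on low values or with only the compared conditions fitted, 2 with quantile normalization, after rescaling without mitochondrial genes and with the replicate block, alone or with either scaling (the last pair chosen after seeing the data), and 0 to 2 with a library left out. For IFNγ in siCTRL cells the count of 2 became 0 with no filter or only the compared conditions, and 0 to 2 with a library left out. For IFNγ in siMITF cells the count of 2 became 1 with no filter, a minimum mean of 5 TPM, quantile normalization, median centring, no intensity trend or only the compared conditions, and 1 to 2 with a library left out. The cause was not tested, and the fits that leave some libraries out also had fewer samples.

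KRT10-AS1 for siMITF with IFNγ turned from 0.0063 to -0.0018 with quantile normalization and to -0.0061 with median centring, with or without the block. With a library left out, its range was -0.042 to 0.070 there, -0.10 to 0.038 for siMITF without IFNγ and -0.032 to 0.11 for the interaction. Likewise LINC02693 ranged from -0.069 to 0.38 for siMITF with IFNγ and from -0.18 to 0.18 for IFNγ in siCTRL cells, and RNF216P1 from -0.048 to 0.084 for IFNγ in siCTRL cells. None of these was called. Of the values of single members under all alternatives, 525 kept direction and call, 45 lost the call, 9 gained it and 16 changed sign. The replicate block added calls for LINC02693 and RNF216P1 with siMITF and changed no other call of a member, while over all genes it raised the count called for IFNγ in siCTRL cells from 1652 to 3281 and in siMITF cells from 2574 to 4556. Unknown depth limits what can be said of small differences.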
